A study of Mus musculus with 6 samples.

Results

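The interferon response genes are those that cells switch on when they sense viral nucleic acid or receive an interferon signal. A list of 39 such mouse genes was followed in enterospheres, free-floating spheres of neural progenitor cells from gut muscle, kept with or without thyroid hormone. The genes were chosen by name, with earlier results of these data known. Of the 39, 37 had a probe set carrying that gene's symbol alone, out of 19938 genes measured in all. Isg15 and Ifi44 had none and were not analysed here.

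All spheres came from the circular muscle of newborn (P0) C57BL/6 mice, with 3 mice pooled for each sample, and no transgene or deletion is named for either group. They were grown in medium with epidermal and fibroblast growth factor for 4 and then 5 days, picked by hand while still floating, and placed for 1 day in differentiation medium without these factors. The T3 group (3 samples) then received 100 nM triiodothyronine, the active thyroid hormone, for 1 day (the labels write the unit as nm, read here as nM). The control group (3 samples) was left untreated for the same time. Each sample was measured on 1 mouse whole-transcript array, and the values are log2 normalized signals. The median signal of the 6 arrays lay between 6.09 and 6.15, and 3 arrays per group limit the precision. Nothing in the labels says whether the samples of a group came from separate litters, so p-values measure only the spread between these samples. Of 8 measured markers of enteric progenitors and glia, 7 had a control signal above the 75th percentile of all genes, as did 10 of 10 fibroblast and mesenchyme markers. In bulk samples a larger share of a cell type and more RNA per cell cannot be told apart.

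Cells detect viral RNA with the helicases RIG-I (gene Ddx58) and MDA5 (gene Ifih1), which lead to the making of interferon. Type I interferon binds its receptor on the same or neighbouring cells, and the kinases JAK1 and TYK2 then activate factors such as STAT2, which works with IRF9 in the complex ISGF3. ISGF3 and related IRF factors bind the interferon-stimulated response element (ISRE) in the promoters of their target genes. Interferon gamma acts at another sequence, the gamma-activated site (GAS). The products block viral RNA and protein synthesis, mark proteins with ISG15 or ADP-ribose, and prepare peptides for display on MHC class I. Many cells, neurons and glia included, keep a low level of these genes without infection.

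The promoters of the 3 members that rose with T3 (Ifit3, Oasl2 and Psmb8) are shown with those of Ifit1 and Rsad2, classical targets of interferon that did not pass the test. They show that the ISRE letters were present beside a gene that rose and beside others that did not pass, and were missing from the windows of others that rose. Each window runs from 250 bases before to 50 bases after the transcription start, 5′ to 3′ on the gene's strand, from RefSeq on build GRCm38.p6. Capitals mark matches to the ISRE core, spelled as GAAA, any 2 bases and GAAA, and searched on both strands (on the other strand it reads TTTC, any 2 bases and TTTC).

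Ifit3, chr19:34583279-34583578 (+ strand): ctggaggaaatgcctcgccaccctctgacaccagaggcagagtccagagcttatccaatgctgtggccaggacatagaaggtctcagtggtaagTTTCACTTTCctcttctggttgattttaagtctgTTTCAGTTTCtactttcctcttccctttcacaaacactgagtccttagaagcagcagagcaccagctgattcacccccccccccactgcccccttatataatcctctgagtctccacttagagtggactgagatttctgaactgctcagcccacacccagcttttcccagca
Ifit1, chr19:34640639-34640938 (+ strand): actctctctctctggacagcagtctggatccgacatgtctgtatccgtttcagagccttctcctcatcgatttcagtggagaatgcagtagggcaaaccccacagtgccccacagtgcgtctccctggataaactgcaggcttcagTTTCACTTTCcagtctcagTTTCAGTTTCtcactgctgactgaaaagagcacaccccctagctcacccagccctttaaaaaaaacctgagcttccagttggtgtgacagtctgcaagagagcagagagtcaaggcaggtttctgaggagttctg
Rsad2, chr12:26456403-26456702 (- strand): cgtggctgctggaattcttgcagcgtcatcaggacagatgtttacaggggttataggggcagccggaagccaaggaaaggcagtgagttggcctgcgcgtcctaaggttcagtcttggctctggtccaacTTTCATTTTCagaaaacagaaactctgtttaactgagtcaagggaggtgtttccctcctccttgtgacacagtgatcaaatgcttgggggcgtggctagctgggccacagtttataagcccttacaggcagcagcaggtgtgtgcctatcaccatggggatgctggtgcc
Oasl2, chr5:114896684-114896983 (+ strand): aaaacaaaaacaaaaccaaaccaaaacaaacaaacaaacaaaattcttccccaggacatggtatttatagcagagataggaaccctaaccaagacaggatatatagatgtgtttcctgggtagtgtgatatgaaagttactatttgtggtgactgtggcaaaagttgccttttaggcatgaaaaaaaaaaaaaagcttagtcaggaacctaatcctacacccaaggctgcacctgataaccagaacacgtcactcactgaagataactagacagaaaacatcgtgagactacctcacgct
Psmb8, chr17:34197945-34198244 (+ strand): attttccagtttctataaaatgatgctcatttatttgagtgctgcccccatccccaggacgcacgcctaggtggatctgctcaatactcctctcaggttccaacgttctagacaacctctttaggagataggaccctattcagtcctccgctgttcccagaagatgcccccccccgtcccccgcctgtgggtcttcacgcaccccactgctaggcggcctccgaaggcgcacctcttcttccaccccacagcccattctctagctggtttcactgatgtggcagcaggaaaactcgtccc

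Ifit3 held 2 matches, ending 146 and 112 bases before the start, and Ifit1 held 2 with the same letters, 94 and 75 bases before it. Rsad2 held 1 match, 110 bases before the start. The windows of Oasl2 and Psmb8 held none. Of the 37 measured members, 29 were found in the RefSeq promoter table (4 of them with several windows), and 10 of these (34.5%) held the ISRE core in a window, against 3.99% of all 27025 genes in the table. The other 7 were Bst2, Ddx58, Eif2ak2, Ifih1, Irf2, Oas3 and Stat2. In Ddx58, Eif2ak2 and Ifih1 the only match lay past the transcription start, not upstream of it. Dhx58, Mx1, Mx2, Nlrc5, Oas2, Parp9, Parp14 and Usp18 were not in the table. The GAS letters, TTTC, any 3 bases and GAAA, searched likewise, stood in the windows of Irf1, Irf2 and Irf8, 3 of 29 (10.3%), against 0.903% of all genes. In Irf2, which held both motifs, the matches did not overlap. The strict direct repeat of AGGTCA with any 4 bases between, a form of element to which thyroid hormone receptors bind, was in none of the 29. It was in 0.0148% of all genes (4 of 27025), so rare that its absence from 29 genes tells little. These are matches of letters, not measured binding sites. Beside these letters stood the following changes with T3. The median log2 change was 0.15 for the 10 members with the ISRE core (-0.11 to 0.85) and 0.12 for the 19 without it (-0.09 to 0.66).

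With T3, 3 of the 37 genes rose and none fell. Ifit3, which binds foreign RNA together with Ifit1, rose 1.80-fold, Oasl2, an oligoadenylate synthetase-like protein, rose 1.58-fold, and Psmb8, a catalytic subunit of the immunoproteasome, rose 1.37-fold. The 3 calls are 8.11% of the members. Over all genes 3.10% were called in either direction, 2.28% higher and 0.823% lower, at an adjusted p under 0.05 (limma with Benjamini-Hochberg adjustment over all genes). The other 34 members did not pass, yet most lay slightly above 0. The log2 change was above 0 for 30 of 37 members, 81.1%, against 53.3% of all genes, and the median was 0.12 for the members and 0.0088 for all genes. An unadjusted p under 0.05 was reached by 12 members, all with T3 higher (32.4%, against 8.92% of all genes in that direction and 4.80% in the other). For 10 members the T3 and control arrays did not overlap, all with T3 higher (27.0%, against 11.9% of all genes in that direction and 7.55% in the other). The highest of the 6 arrays was a T3 array for 27 members and the lowest a control array for 31, 73.0% and 83.8%, against 49.0% and 57.3% of all genes. Members are not independent of each other, the list was chosen with earlier results of these data known, and no test was made over it.

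**Figure D1:**
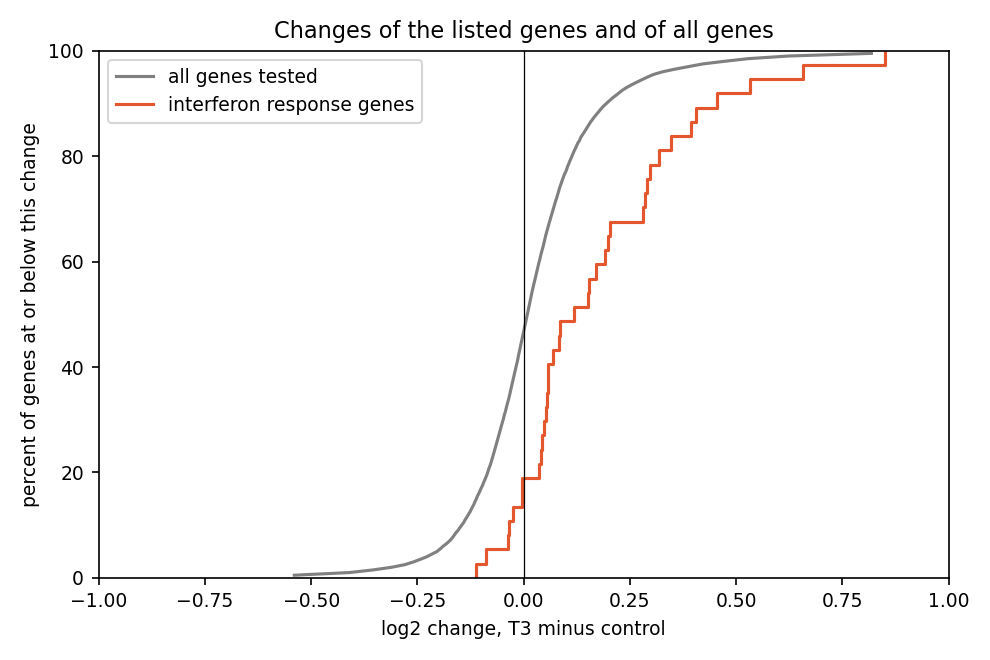
Percent of genes (vertical axis) whose log2 change, T3 minus control (horizontal axis), lay at or below each value, for the 37 interferon response genes (red steps) and all genes tested (grey line). The red line runs to the right of the grey line, with medians of 0.12 and 0.0088.

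The call of each of the 3 called members depended on single arrays, while the log2 change kept its direction in every fit. With 1 array left out it was 0.75 to 0.96 for Ifit3, 0.60 to 0.75 for Oasl2 and 0.39 to 0.54 for Psmb8. Without control replicate 1 none of the 3 passed (adjusted p 0.0588 for Ifit3, 0.0520 for Oasl2 and 0.128 for Psmb8, limma), and no other member passed then either. In that fit 0.958% of all genes were called, and 11 members still had an unadjusted p under 0.05. Without T3 replicate 2, Oasl2 was the 1 member that passed, and 1.31% of all genes were called. The mean of the members, each taken as the difference from its own mean over the 6 arrays, was lowest in control replicate 1 at -0.13, against -0.07 and -0.08 in control replicates 2 and 3, and 0.06, 0.10 and 0.10 in T3 replicates 1, 2 and 3. The T3 and control arrays thus did not overlap in this mean, which is a description of these arrays. With array quality weights the number of members that rose was 13, while 17.8% of all genes were called.

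The 3 largest log2 changes of the list, those of Ifit3, Oasl2 and Samd9l, were in antiviral effectors. Of 16 measured genes of this kind 2 rose, none fell and 14 did not pass, and 15 had a log2 change above 0. Ifit3 (probe set 10462618) had log2 signals of 6.59, 7.01 and 6.77 in control replicates 1 to 3 and 7.44, 7.64 and 7.85 in T3 replicates 1 to 3. Every T3 array lay above every control array. The log2 change was 0.85 ± 0.13 (SE, n = 3 per group) with adjusted p = 0.0129 (limma), lost without T3 replicate 2 (0.0532) as well as without control replicate 1. In RefSeq Ifit2 lies next to it and Ifit1 with 4 genes between. Ifit2, an RNA-binding tetratricopeptide protein of the same family, had 8.36, 8.55 and 8.34 in controls and 8.85, 8.65 and 8.65 with T3, a log2 change of 0.30 ± 0.09 (SE) that did not pass (adjusted p = 0.155, limma), though the groups did not overlap. Ifit1, which recognises viral RNA lacking the host's cap methylation, had 5.42, 5.87 and 5.90 in controls and 5.80, 6.23 and 6.34 with T3. Those groups overlapped, since T3 replicate 1 lay below control replicates 2 and 3, and the change of 0.39 ± 0.17 (SE) had adjusted p = 0.341 (limma). The differences between the changes of the 3 Ifit genes were not tested.

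Oasl2 (probe set 10524621) was the member of smallest p. It had 8.09, 8.35 and 8.05 in the control arrays and 8.85, 8.83 and 8.78 in the T3 arrays. The T3 values were close together and clear of the controls, of which replicate 2 was the highest. The log2 change was 0.66 ± 0.09 (SE, n = 3 per group), adjusted p = 0.00777 (limma), and it passed in 5 of the 6 fits that left out 1 array. Oasl1, a close relative that restrains translation of Irf7, had a log2 change of 0.08 with adjusted p = 0.887 (limma). The Oas genes of the list encode oligoadenylate synthetases, which activate the RNA-degrading RNase L. Oas2 had 5.52, 5.55 and 5.93 in controls and 5.94, 5.44 and 5.55 with T3. Its groups covered the same range, with a log2 change of -0.025, and Oas3 had one of 0.05. The sign turned in 5 of the 14 alternative settings that tested Oas2 and in 3 of 14 for Oas3.

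Samd9l, an antiviral restriction factor, did not pass although its groups did not overlap. Its signals were 6.16, 6.61 and 6.09 in controls and 7.01, 6.79 and 6.66 with T3. The control of replicate 2 lay just under the lowest T3 array, and the log2 change of 0.53 ± 0.15 (SE) had adjusted p = 0.113 (limma), against 0.0182 without control replicate 2. Samd9l did not pass when any other single array was left out (adjusted p at most 0.392, limma). The dynamin-like GTPase genes Mx1 and Mx2 are listed by RefSeq as transcribed pseudogenes on the C57BL/6J assembly. Mx1 had 4.25, 4.04 and 4.23 in controls and 4.33, 4.19 and 4.16 with T3, and Mx2 had 3.91, 3.80 and 3.91 in controls and 3.95, 3.72 and 4.09 with T3. They were the 2 dimmest probe sets of the list, at the 12.2 and 8.30 percentile of all genes in controls, and it is not known whether they were above background. Rsad2, which encodes viperin, an enzyme that makes a chain-terminating nucleotide, was the next dimmest, with 5.11, 4.95 and 5.15 in controls and 5.02, 5.43 and 5.22 with T3. Its groups overlapped, at a log2 change of 0.15 (adjusted p = 0.666, limma). Cmpk2, a mitochondrial nucleotide kinase and the neighbour of Rsad2, changed by 0.04 on the log2 scale without passing. The remaining effectors also did not pass: Xaf1, a regulator of apoptosis, at 0.17, Bst2, which tethers budding virus to the cell, at 0.15, Ifi35 at 0.09 and Eif2ak2, the RNA-activated kinase PKR that blocks translation, at 0.07 (adjusted p from 0.481 to 0.888, limma).

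**Figure D2:**
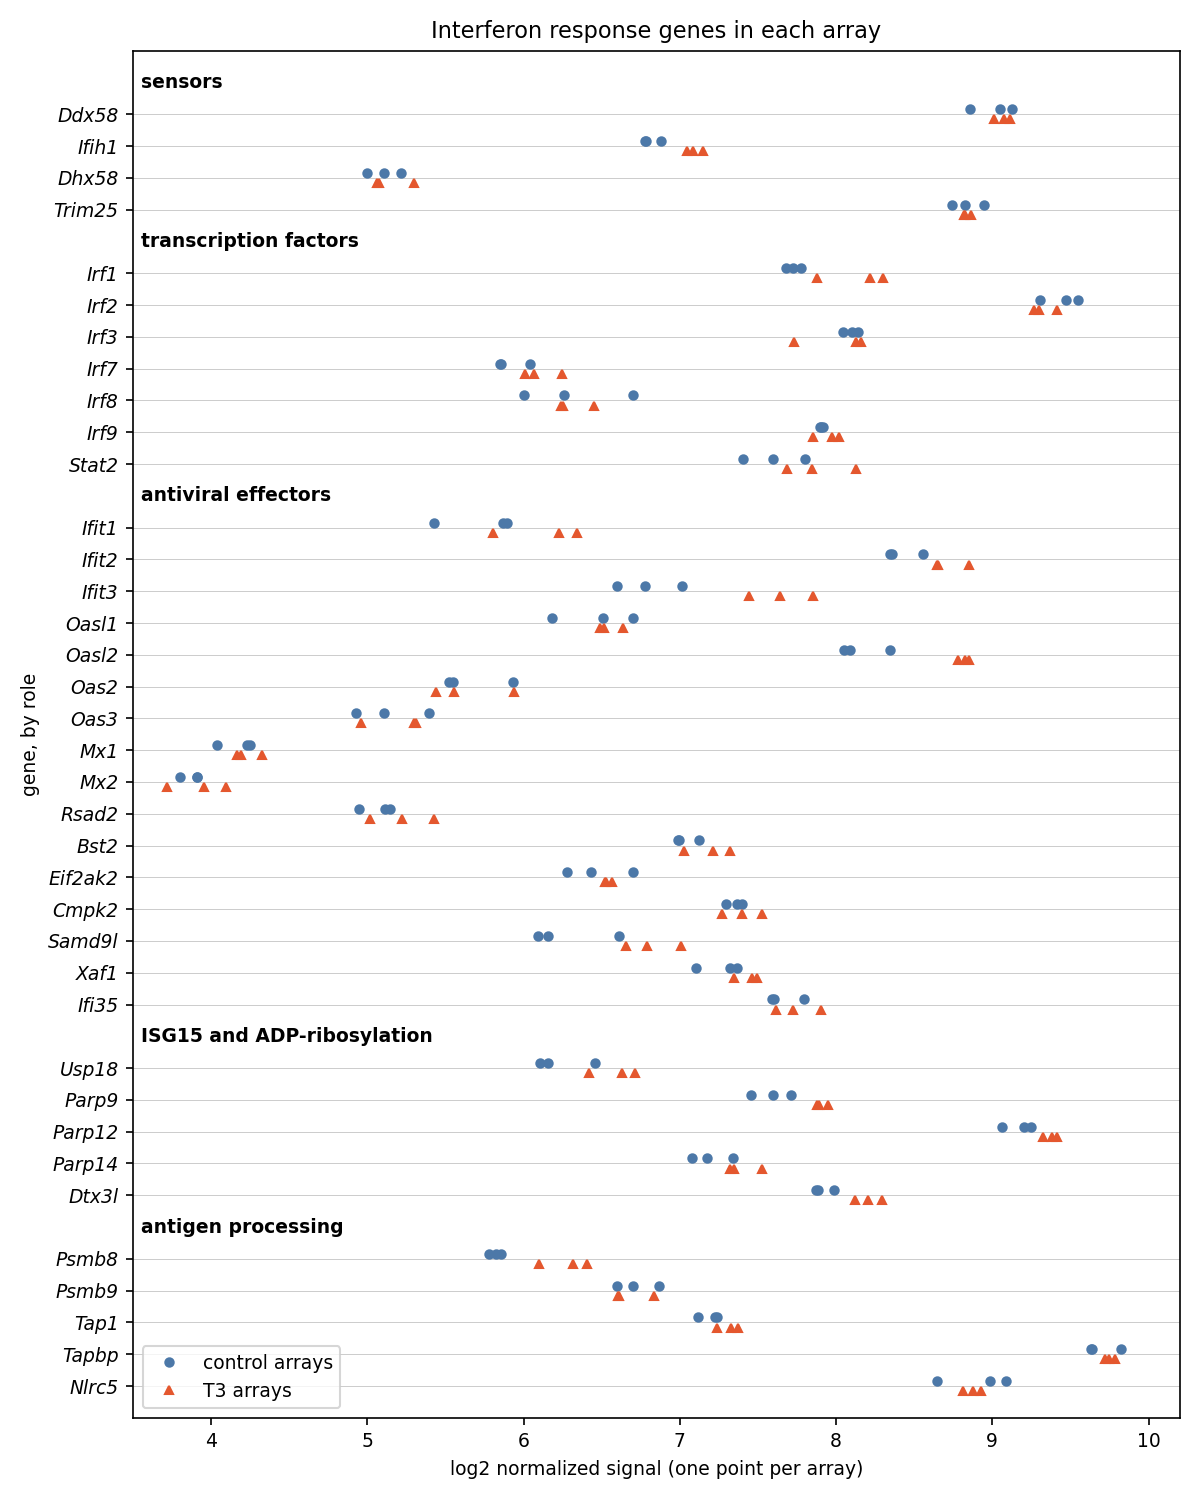
Log2 normalized signal (horizontal axis) of the 37 interferon response genes (vertical axis, by role), 1 point per array, with the 3 control arrays as blue circles and the 3 T3 arrays as red triangles. The groups are clear of each other for Ifit3, Oasl2 and Psmb8 and mixed for genes such as Oas2 and Trim25; signals of different genes come from different probes and are not comparable as amounts.

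Genes of the ISG15 and ADP-ribosylation group leaned upwards without a call. None of the 5 measured genes passed, all 5 had a log2 change above 0, and 4 had an unadjusted p under 0.05. Parp9, which forms an ADP-ribosylating pair with the ubiquitin ligase Dtx3l, had 7.46, 7.71 and 7.59 in controls and 7.89, 7.88 and 7.95 with T3. Dtx3l had 7.88, 7.99 and 7.87 in controls and 8.12, 8.29 and 8.20 with T3. In both, every T3 array was above every control array. The 2 genes are direct neighbours in RefSeq, and their log2 changes were 0.32 ± 0.08 (SE, adjusted p = 0.0887, limma) and 0.29 ± 0.08 (SE, adjusted p = 0.0947, limma). When the dimmer 50% of genes were left out, which lowers the number of tests, they passed at 0.0385 and 0.0379. In that fit 21 members were tested, Psmb8 not among them. It called 7.47% of the genes tested, against 3.10% in the main fit. Parp12, an ADP-ribosyltransferase that restricts viral translation, had 9.20, 9.25 and 9.06 in controls and 9.32, 9.38 and 9.42 with T3. The T3 arrays lay just above the controls, and the log2 change of 0.20 ± 0.08 (SE) had adjusted p = 0.261 (limma). Usp18, which removes ISG15 from proteins and damps the interferon receptor, had 6.16, 6.46 and 6.11 in controls and 6.42, 6.71 and 6.63 with T3. Its groups overlapped through T3 replicate 1 and control replicate 2, and the change of 0.35 ± 0.11 (SE) had adjusted p = 0.190 (limma). Parp14, a large member of the same enzyme family, had a log2 change of 0.20 (adjusted p = 0.408, limma).

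Of the 5 antigen-processing genes 1 rose and 4 did not pass. Psmb8 (probe set 10444258) had 5.86, 5.82 and 5.78 in controls and 6.10, 6.40 and 6.32 with T3. The controls were tight and all below the T3 arrays, and the log2 change was 0.45 ± 0.09 (SE, n = 3 per group) with adjusted p = 0.0341 (limma). It still passed when T3 replicate 1 was left out (adjusted p = 0.0182, limma) and did not when any other single array was (at most 0.132). In RefSeq the peptide transporter gene Tap1 lies between Psmb8 and Psmb9, another immunoproteasome subunit. Tap1 had a log2 change of 0.12 (95% confidence interval -0.05 to 0.29) and Psmb9 one of -0.04 (-0.26 to 0.18). Tapbp, the tapasin gene that loads peptides onto MHC class I, was the brightest probe set of the list, with 9.64, 9.63 and 9.82 in controls and 9.72, 9.75 and 9.79 with T3. Its groups overlapped, at a log2 change of 0.05. Nlrc5, the transactivator of MHC class I genes, had a log2 change of -0.03 by its brightest probe set, and the sign turned in 3 of the 15 alternative settings. Of its 19 probe sets 13 changed by more than 0, over a range of -0.18 to 0.38, and the mean over all of them gave 0.09 (adjusted p = 0.745, limma). In 2 of the 19 every T3 array lay above every control array, and in none below.

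**Figure D3:**
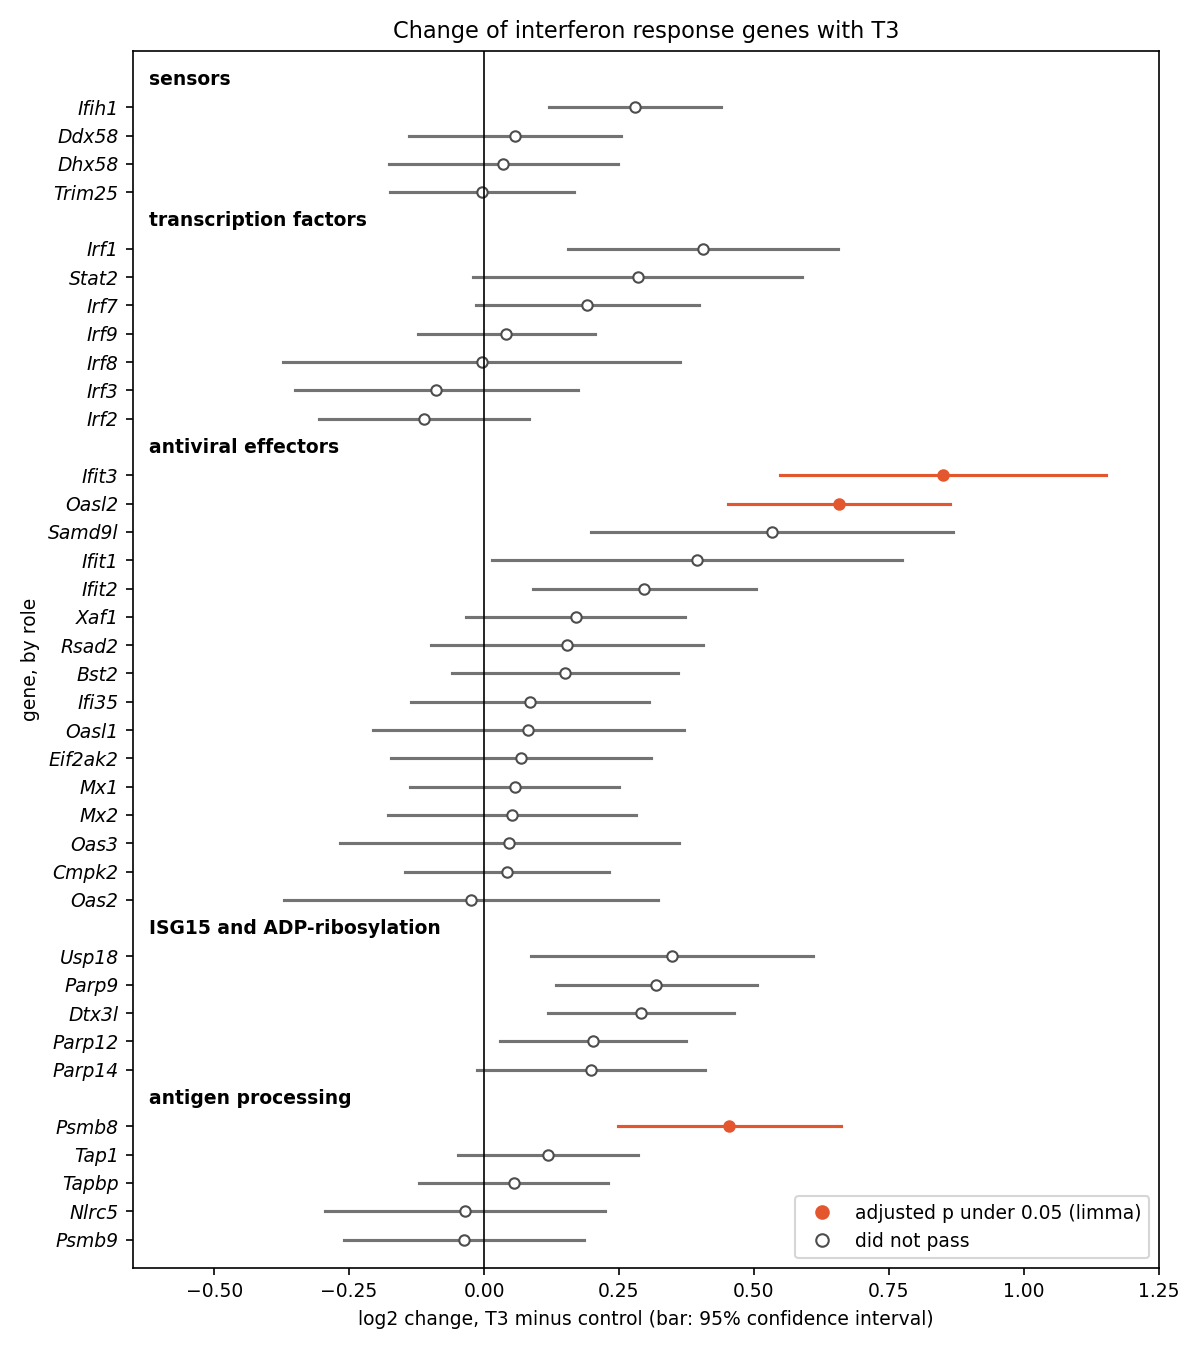
Log2 change, T3 minus control (horizontal axis), with its 95% confidence interval from limma for the 37 genes (vertical axis, by role). Filled red points mark Ifit3, Oasl2 and Psmb8, which passed at an adjusted p under 0.05, and open points mark the 34 that did not; 36 of the 37 intervals lie between -1 and 1.

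No sensor of viral RNA passed. Ifih1 had 6.78, 6.88 and 6.78 in controls and 7.04, 7.09 and 7.15 with T3. All T3 arrays were higher than all controls. The log2 change, 0.28 ± 0.07 (SE), missed the threshold (adjusted p = 0.0823, limma). Ddx58 had 9.05, 9.12 and 8.85 in controls and 9.01, 9.12 and 9.07 with T3. Its groups overlapped, at a log2 change of 0.06 (95% confidence interval -0.14 to 0.25). Dhx58, the related helicase LGP2, and Trim25, the ubiquitin ligase that aids RIG-I, had log2 changes of 0.04 and -0.0037.

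None of the 7 transcription factors passed, and 4 had a log2 change above 0. Irf1, a factor that both interferons induce, had 7.68, 7.77 and 7.72 in controls and 8.21, 8.30 and 7.88 with T3. T3 replicate 3 lay near the controls and the other T3 arrays well above them. The log2 change of 0.41 ± 0.11 (SE) had adjusted p = 0.105 (limma), and 0.0333 without T3 replicate 3. Irf1 did not pass when any other single array was left out (adjusted p at most 0.352, limma). A second, dimmer Irf1 probe set changed by 0.04, and the difference between the 2 probe sets was not tested. The ISGF3 subunit gene Stat2 had 7.60, 7.80 and 7.40 in controls and 8.12, 7.85 and 7.69 with T3. Its T3 replicate 3 lay within the controls, and the change of 0.28 ± 0.13 (SE) had adjusted p = 0.412 (limma). Irf9, the DNA-binding subunit of that complex, had 7.91, 7.92 and 7.90 in controls and 7.85, 7.98 and 8.02 with T3, where the controls lay inside the T3 range. Irf2, which competes with Irf1 and restrains the response, had 9.30, 9.55 and 9.47 in controls and 9.27, 9.30 and 9.42 with T3. Those groups overlapped, and the log2 change of -0.11 was the most negative of the list (adjusted p = 0.694, limma). Irf7, which amplifies type I interferon, had a log2 change of 0.19, Irf3, which starts it, one of -0.09 and Irf8, a factor of myeloid cells, one of -0.0043 (adjusted p from 0.418 to 0.997, limma).

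The precision bounds what these arrays could have missed. The 95% confidence interval of the log2 change lay between -0.5 and 0.5 for 27 members and between -1 and 1 for 36. The exception was Ifit3, with an interval of 0.55 to 1.15. These bounds hold for the array signal, in which background can shrink the change of a dim gene.

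Genes that start and carry the interferon signal did not pass, while some other interferon-induced genes rose. None of 15 interferon and related cytokine ligand genes (median log2 change 0.03) and none of 15 receptor and JAK-STAT genes (median 0.0041) was called, with unadjusted p under 0.05 for 0 and 1 of them (limma). Of the ligands, 7 lay below the 25th percentile of all genes in controls, and whether they were above background is not known. The gene of smallest p was Ifng at -0.22 (adjusted p = 0.470, limma) among the ligands and Ifngr1, a subunit of its receptor, at -0.20 (adjusted p = 0.345, limma) among receptors. None of 19 genes of nucleic acid sensing and adaptors passed. Of these 19, 14 had a log2 change above 0 (73.7%, against 53.3% of all genes). An unadjusted p under 0.05 (limma) was reached by 2 with T3 higher (10.5%, against 8.92% of all genes) and by 1 with T3 lower. The smallest p there was that of Sting1, the adaptor of DNA sensing, whose log2 change of -0.36 ran downwards (adjusted p = 0.137, limma).

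Of 41 other interferon-induced genes 3 rose (7.32%, against 2.28% of all genes called higher) and none fell. An unadjusted p under 0.05 (limma) was reached by 9 of the 41, all with T3 higher (22.0%, against 8.92% of all genes in that direction). Ifi30, a lysosomal thiol reductase of antigen processing, had 9.23, 9.43 and 9.35 in controls and 9.86, 10.03 and 10.04 with T3. All its T3 arrays were higher. It rose by 0.64 ± 0.08 (SE) on the log2 scale at adjusted p = 0.00687 (limma) and passed in all 6 fits without 1 array. The membrane protein gene Ly6e rose by 0.52 ± 0.09 (SE) and the ATPase gene Tor3a by 0.38 ± 0.08 (SE). Ly6e no longer passed when T3 replicate 2, T3 replicate 3 or control replicate 1 was left out (adjusted p at most 0.0841, limma), and Tor3a when any 1 array was (at most 0.187). Of 13 MHC class I and immunoproteasome genes none passed, and 3 had an unadjusted p under 0.05 (limma), all with T3 higher (23.1%). Psmb10, the third inducible catalytic subunit, had a log2 change of 0.33 (adjusted p = 0.0998, limma). Of 6 guanylate-binding protein genes, GTPases that attack intracellular pathogens, Gbp3 rose by 1.82 ± 0.12 (SE) and Gbp7 by 0.79 ± 0.07 (SE), and they passed in all 6 fits without 1 array. Over the 109 measured genes of these 6 lists, 5 rose (4.59%) and none fell, with a median of 0.05. Gbp3 and Gbp7 were 2 of the 5. Over all genes 2.28% were called higher and 0.823% lower, with a median of 0.0088.

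**Figure D4:**
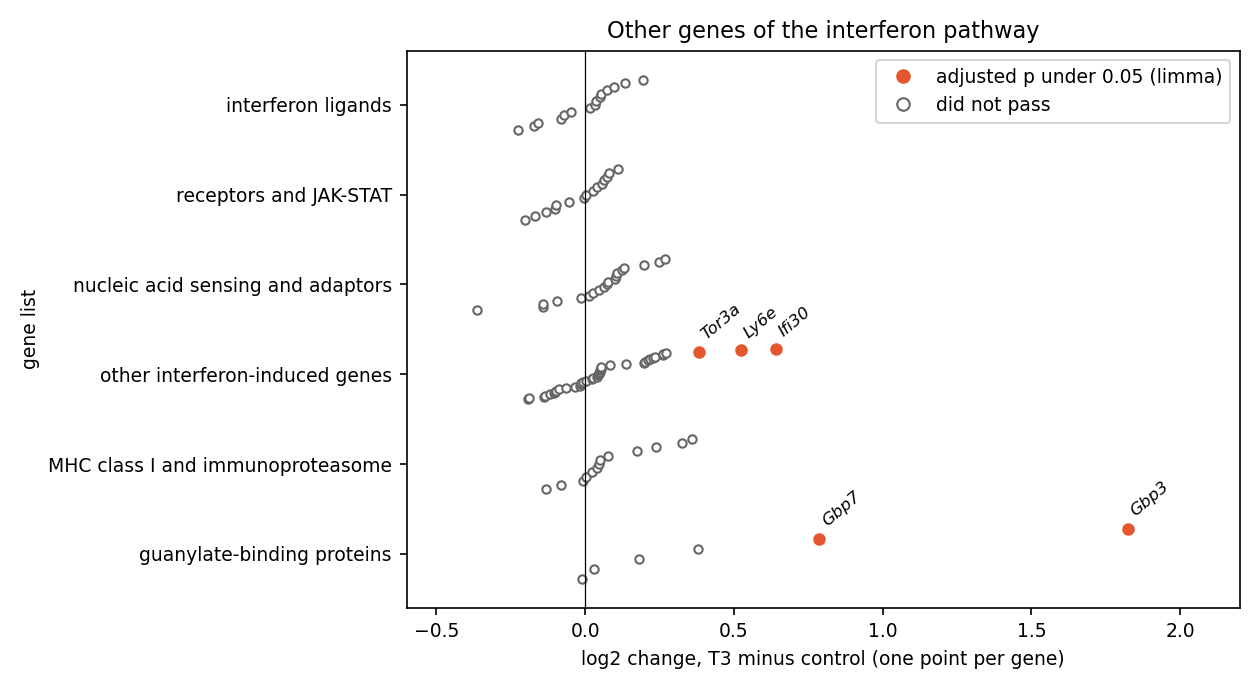
Log2 change, T3 minus control (horizontal axis), of 109 other interferon pathway genes in 6 lists (vertical axis), 1 point per gene, spread vertically by rank within a list. Filled red points mark the 5 genes with an adjusted p under 0.05: Ifi30, Ly6e, Tor3a, Gbp3 and Gbp7.

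Markers of immune cells, which can make and answer interferon, were dim. None of 19 macrophage and leukocyte markers passed, and 13 had a log2 change above 0 and 6 below. Coro1a and Cd53, 2 of the 19, had an unadjusted p under 0.05 (limma). Their log2 changes were 0.31 and 0.36 (adjusted p 0.0699 and 0.111, limma), with every T3 array above every control array. The summed linear signal of the 19 was 719 to 791 in controls and 763 to 791 with T3, so the groups overlapped. All 19 lay below the median of all genes in controls, the defining genes Ptprc, Csf1r and Adgre1 at the 22.1, 24.5 and 15.8 percentile. Of 9 markers of plasmacytoid cells and lymphocytes, Cd79b, a B cell receptor subunit, fell by 0.56 on the log2 scale (adjusted p = 0.0279, limma) and 8 did not pass, with sums of 307 to 363 in controls and 292 to 296 with T3. No marker is listed at 0, and the arrays carry no detection calls. Of 10 neuron markers Prph, Snap25 and Dbh rose and 7 did not pass. An unadjusted p under 0.05 (limma) was reached by 6 of the 10, all with T3 higher. Elavl4, Tubb3, Uchl1 and Gap43 had log2 changes of 0.02, 0.03, -0.02 and -0.09. The summed signal of all 10 was 15823 to 16886 in controls and 17660 to 18489 with T3. Of 8 smooth muscle markers Myh11 rose by 0.60 on the log2 scale while Tagln fell by 0.72 and Acta2 by 0.38. The log2 change was above 0 for 5 of these 8 and below for 3 (median 0.14). Their sums were 2316 to 2570 in controls and 2155 to 2202 with T3. A linear sum leans on bright probe sets, here Acta2 (control mean 10.14). Of 10 endothelial markers Plvap rose by 0.42 while Egfl7 fell by 0.70 and Kdr by 0.41. The log2 change was above 0 for 7 of these 10 and below for 3 (median 0.12). Their sums, in which Egfl7 was the brightest probe set (control mean 8.95), were 983 to 1112 in controls and 844 to 973 with T3. Of the 10 fibroblast and mesenchyme markers Thy1, which neurons also express, rose 2.36-fold, and the sums overlapped between groups (24510 to 25646 in controls and 24353 to 25792 with T3). None of the 8 markers of enteric progenitors and glia passed, and their sums overlapped too. The part of these cell types in the changes above was not tested.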

How the data were processed

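The authors deposited log2 expression values for 35556 probe sets on 6 arrays, with RMA and Partek 6.5 as tools per the submitters' processing notes; for its settings and the genome build the sources used here give nothing. RMA as usually run equalises the arrays by quantiles, which removes a change common to most genes. Groups and replicate numbers come from the sample titles. Probe sets were named through the platform annotation: 21789 had 1 gene symbol, 1621 several and 12146 were not listed. The single-symbol probe set of highest mean over the 6 arrays stood for its gene, giving 19938 genes; Irf1 and Nlrc5 were the members with more than 1.

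T3 minus control was tested in every gene by lmFit and eBayes of limma 3.58.1 (R 4.3.3). Tests were two-sided, p-values were adjusted by Benjamini-Hochberg over the 19938 genes, and calls needed an adjusted p under 0.05. SE and 95% confidence intervals come from that fit. The procedure was tested on simulated data. The members, lists and alternatives were chosen with earlier results of these data known; the GAS and direct-repeat motifs were added after the values were seen.

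All members are named. By rule, values in each array are given for called members, members with an unadjusted p under 0.05, the 3 brightest and 3 dimmest probe sets, and Irf9, Stat2, Ifit1, Mx1, Oas2, Rsad2, Ddx58 and Ifih1. From the other pathway lists, called genes and the gene of smallest p are named. Other pathway genes and markers named were chosen after their values were seen. Arrays within a group differed with an SD of 0.137 to 0.243 over all genes, so none was a copy of another. Alternatives were the replicate number as a block, arrays centred on the median or 75th percentile, a new quantile normalization, trend and robust fitting, averaged probe sets, a filter on the dimmest 25% or 50% of genes, array quality weights and leaving out each array.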

Additional observations from a re-analysis of the deposited data

How the results depend on the processing

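The number of members that rose was 3 in the reported fit and stayed between 3 and 4 under 8 other settings that kept all 6 arrays, with none lower. It was 13 with array quality weights, where 2451 genes were higher and 1097 lower over all genes, and 21 of the other pathway genes were higher and 2 lower. Trend and robust fitting gave 261 lower genes over all. Without 1 array each, the members that rose numbered 0 to 4 and the other pathway genes 3 to 5, with none lower, and over all genes 134 to 516 were higher and 57 to 124 lower. The log2 change was above 0 for 27 to 33 of 37 members under the settings that tested all of them. The median log2 change of the members was 0.09 to 0.15 over all settings, the lowest with arrays centred on their 75th percentile. Samples of the same replicate number did not clearly pair by the data (correlations of their deviations of 0.18, 0.02 and 0.00017). The labels do not say whether they share a preparation, and 3 arrays per group cannot settle it. With the replicate block 3 members rose, Ifit1 gaining a call (adjusted p = 0.0478, limma) and Psmb8 losing it (0.0625), and 472 genes were called. Not every sample correlated best with its own number: T3 replicate 3 did so with control replicate 2. Without detection calls, the depth of dim genes such as Mx1 and Mx2 cannot be judged.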
